A study of Homo sapiens with 8 samples.

Results

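ZDHHC2, CNTNAP2, GABRQ, SHISAL1, KHDRBS3, SATB1, CAMK4 and NECTIN3 were 8 of the 20294 genes in a count table of HSC-5, a human line from squamous cell carcinoma of the skin. They were chosen by their measured counts, which were at or near 0 in the control libraries and higher in every library with a guide RNA against EZH2. Each gene was matched by its symbol. Per the design text, HSC-5 cells were made to express Cas9 stably by lentivirus, were then transduced with a guide RNA, and were kept in G418 to select carriers ahead of RNA collection. The groups were sgEZH2-1 cells (3 libraries), sgEZH2-2 cells (3 libraries) and control cells with an empty vector (2 libraries), all of the same line, and no time after transduction is stated. The authors left out 1 control because it clustered apart, and that library was not analysed here. The labels describe selected cells and name no clones, and they do not state separate cultures for the libraries within a group. P-values here thus reflect only the spread among the sequenced samples, possibly technical in part.

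EZH2 carries the methyltransferase activity of Polycomb repressive complex 2, which methylates lysine 27 of histone H3 and holds developmental genes silent. The 8 genes share no family. CNTNAP2 (CASPR2) and NECTIN3 are adhesion proteins of the cell surface, GABRQ is a subunit of the GABA-A chloride channel, and SHISAL1 encodes a shisa-like membrane protein. ZDHHC2 and CAMK4 are enzymes, a palmitoyltransferase and a calcium/calmodulin-dependent kinase, while SATB1 and KHDRBS3 bind DNA and RNA in the nucleus. CNTNAP2, GABRQ, KHDRBS3 and CAMK4 are best known from neurons, and SATB1 and CAMK4 also from T cells.

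The libraries held 12.9 M to 14.7 M counts with sgEZH2-1, 12.61 M to 14.3 M with sgEZH2-2, and 14.3 M and 15.47 M in the controls. EZH2 itself was at 56.4, 56.3 and 48.0 CPM (read counts divided by the TMM-scaled library total in units of 1000000) with sgEZH2-1, at 73.8, 67.5 and 65.1 CPM with sgEZH2-2, and at 82.7 and 84.1 CPM in the controls. The log2 fold change of EZH2 against control was -0.64 with sgEZH2-1 (SE 0.083, adjusted p = 0.000529) and -0.28 with sgEZH2-2 (SE 0.083, adjusted p = 0.0699), by the quasi-likelihood test of edgeR. The EZH2 transcript was lower with sgEZH2-1 than with sgEZH2-2 (log2 fold change -0.36, SE 0.076, adjusted p = 0.00844). The summed CPM of 8 keratinocyte markers was 2495 to 2941 with sgEZH2-1, 2454 to 2558 with sgEZH2-2 and 2836 to 3010 in the controls. Of the 8, 3 were called higher (KRT17 and KRT6A among them) and 1 lower with sgEZH2-1, and 0 higher and 2 lower with sgEZH2-2. KRT5 averaged 1870, 1577 and 2028 CPM in these groups, while KRT14, its usual partner in basal keratinocytes, was near 0 at 0.618, 0.796 and 0.474 CPM. In bulk RNA, fewer cells that express a gene and less RNA per cell cannot be told apart.

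Promoter sequence was not used to choose the genes. RefSeq (GRCh38.p14) gave 10 promoter windows, from 250 bases before to 50 after a start, for 5 of them: 4 for SATB1, 3 for CAMK4 and 1 each for CNTNAP2, GABRQ and NECTIN3. The stretches below are the parts of 4 windows that no annotated exon covers, printed as examples of the sequence at starts of these genes. They read 5′ to 3′ on the strand of the gene, and capitals mark each CpG. The CAMK4 stretch is chr5:111223707-111223916 on the plus strand, the GABRQ stretch chrX:152637645-152637894 (plus), the NECTIN3 stretch chr3:111071566-111071742 (plus) and the SATB1 stretch chr3:18425370-18425589 (minus).
CAMK4: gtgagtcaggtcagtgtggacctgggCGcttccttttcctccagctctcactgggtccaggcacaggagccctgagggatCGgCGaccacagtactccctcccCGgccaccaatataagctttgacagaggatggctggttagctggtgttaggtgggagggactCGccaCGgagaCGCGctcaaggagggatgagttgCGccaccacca
GABRQ: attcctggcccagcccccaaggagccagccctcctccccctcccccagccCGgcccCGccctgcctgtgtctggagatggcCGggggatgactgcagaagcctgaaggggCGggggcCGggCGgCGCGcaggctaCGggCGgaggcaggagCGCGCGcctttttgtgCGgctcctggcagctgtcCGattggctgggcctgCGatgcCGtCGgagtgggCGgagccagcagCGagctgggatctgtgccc
NECTIN3: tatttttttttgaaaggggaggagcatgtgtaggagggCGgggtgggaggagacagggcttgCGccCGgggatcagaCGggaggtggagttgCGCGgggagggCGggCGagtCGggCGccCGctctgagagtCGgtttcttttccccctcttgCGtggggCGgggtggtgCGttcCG
SATB1: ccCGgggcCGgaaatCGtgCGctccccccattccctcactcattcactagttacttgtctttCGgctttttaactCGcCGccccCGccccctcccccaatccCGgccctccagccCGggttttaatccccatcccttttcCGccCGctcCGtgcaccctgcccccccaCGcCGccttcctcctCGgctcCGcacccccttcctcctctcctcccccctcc

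The CAMK4 stretch held 9 CpG in 210 bases, 0.463 of the number its base composition predicts. The GABRQ stretch held 20 in 250 bases (0.599 of the predicted number), the NECTIN3 stretch 16 in 177 bases (1.02) and the SATB1 stretch 17 in 220 bases (1.01). Windows of 1 gene differed as widely as windows of different genes. The ratio of observed to predicted CpG over the whole windows was 0.0747, 0.580 and 0.929 at the 3 CAMK4 starts. At the 4 SATB1 starts it was 1.16, 0.278, 0.551 and 0.499, and the SATB1 stretch above comes from the first of these. Over all 10 windows the median GC content was 61.2%, against 58.7% over the 35116 windows of the RefSeq table, and 6 of the 10 were above that table's median. The median observed-over-expected CpG ratio was 0.571 in the 10 windows and 0.579 in the table, with members running from 0.0747 to 1.16. On either strand, GGGCGG (the core of an SP1 site, which itself contains a CpG) was in 8 of the 10 windows and in 45.0% of all windows. GAGAG was in 7 of the 10 windows and in 61.6% of all windows. TATAAA was in 0 of the 10 and in 11.5% of all windows. The 10 windows come from 5 genes and do not overlap.

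CNTNAP2, a neurexin-family protein that clusters potassium channels on axons, spans chromosome 7, positions 146116002 to 148420998 (plus strand, GRCh38, as are all positions of genes given here). It had 92, 118 and 118 counts with sgEZH2-1, 58, 56 and 45 counts with sgEZH2-2, and 0 and 1 count in the controls. Its level was 7.10, 8.07 and 8.26 CPM with sgEZH2-1, 4.002, 4.40 and 3.43 CPM with sgEZH2-2, and 0 and 0.0652 CPM in the controls. Every sgEZH2-1 library was above every sgEZH2-2 library, and every guide library was above both controls. The ratio to control was 231 with sgEZH2-1 and 116 with sgEZH2-2. Because the 2 controls together gave 1 count, the 95% counting intervals were wide, 41.1 to 9134 and 20.5 to 4611. Of all tested genes, 20.8% were called in either direction with sgEZH2-1 and 8.68% with sgEZH2-2. No test against control is given for CNTNAP2 or the other 7 genes, since that contrast chose them. CNTNAP2 is the longest of the 8 genes and ends 386 kb from EZH2 on the same chromosome. Of its exon sequence, 2.44% of 50-base words also occur in other annotated genes. Most of these words are in DUTP3, a pseudogene that lies inside CNTNAP2 on the same strand.

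NECTIN3, an immunoglobulin-like adhesion protein that binds other nectins across cell contacts and afadin inside the cell, lies on chromosome 3, positions 111070071 to 111275563 (plus). It had 98, 110 and 126 counts with sgEZH2-1, 71, 51 and 58 counts with sgEZH2-2, and 1 and 8 counts in the controls. Its level was 7.57, 7.52 and 8.82 CPM with sgEZH2-1, 4.90, 4.01 and 4.42 CPM with sgEZH2-2, and 0.0710 and 0.521 CPM in the controls. The guide groups did not overlap, and the second control held most of the control counts. NECTIN3 was 26.1 times control with sgEZH2-1 (counting interval 13.6 to 57.5) and 14.6 times with sgEZH2-2 (7.52 to 32.4). An annotated antisense gene, NECTIN3-AS1, overlaps the start of NECTIN3 on the opposite strand, up to position 111071553. The strand setting of the counting is not given in the sources used here, so reads of the pair cannot be told apart within that overlap.

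GABRQ, the theta subunit of the GABA-A receptor, lies on the X chromosome, positions 152638183 to 152657534 (plus). It had 142, 143 and 138 counts with sgEZH2-1, 68, 74 and 66 counts with sgEZH2-2, and 1 and 2 counts in the controls. Its level was 10.96, 9.78 and 9.66 CPM with sgEZH2-1, 4.69, 5.82 and 5.03 CPM with sgEZH2-2, and 0.0710 and 0.130 CPM in the controls. The libraries of each guide lay close together and the guides were well apart. The ratio to control was 99.1 with sgEZH2-1 (counting interval 33.7 to 482) and 50.6 with sgEZH2-2 (17.1 to 247).

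SHISAL1, on chromosome 22, positions 44243667 to 44312851 (minus), had 112, 139 and 150 counts with sgEZH2-1, 52, 45 and 48 counts with sgEZH2-2, and 3 and 0 counts in the controls. Its level was 8.65, 9.50 and 10.5 CPM with sgEZH2-1, 3.59, 3.54 and 3.66 CPM with sgEZH2-2, and 0.213 and 0 CPM in the controls. The sgEZH2-2 libraries were the tightest group of any of the 8 genes, with a coefficient of variation of 1.70%. The ratio to control was 94.0 with sgEZH2-1 (counting interval 31.9 to 458) and 35.3 with sgEZH2-2 (11.8 to 173).

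ZDHHC2 adds palmitate to cysteines of membrane proteins, tetraspanins among them, and lies on chromosome 8, positions 17156029 to 17224799 (plus). It had 174, 169 and 207 counts with sgEZH2-1, 71, 84 and 67 counts with sgEZH2-2, and 0 counts in both controls. Its level was 13.4, 11.6 and 14.5 CPM with sgEZH2-1 and 4.90, 6.60 and 5.11 CPM with sgEZH2-2. With sgEZH2-1 it was the highest of the 8 genes in every library. A count of 0 over both controls allows up to 3 counts, or 0.102 CPM. ZDHHC2 was therefore at least 129-fold higher than control with sgEZH2-1 and at least 54.0-fold higher with sgEZH2-2. The variance of its libraries was 2.43 times counting error with sgEZH2-1 and 2.07 times with sgEZH2-2, which was not tested. With 3 libraries a guide such values are imprecise. Over the 8 genes they ran from 0.0134 for SHISAL1 to 2.82 for CAMK4, both with sgEZH2-2.

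CAMK4, a nuclear kinase that phosphorylates CREB when calcium rises, lies on chromosome 5, positions 111223653 to 111494886 (plus). It had 90, 90 and 106 counts with sgEZH2-1, 62, 44 and 34 counts with sgEZH2-2, and 2 and 4 counts in the controls. Its level was 6.95, 6.15 and 7.42 CPM with sgEZH2-1, 4.28, 3.46 and 2.59 CPM with sgEZH2-2, and 0.142 and 0.261 CPM in the controls. The sgEZH2-2 libraries were the most scattered of the 8 genes (coefficient of variation 24.5%) and still lay below every sgEZH2-1 library. The ratio to control was 33.5 with sgEZH2-1 (counting interval 15.2 to 92.1) and 17.0 with sgEZH2-2 (7.63 to 47.2).

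SATB1, a chromatin organiser that binds AT-rich DNA and is needed in developing T cells, lies on chromosome 3, positions 18345387 to 18445588 (minus). It had 133, 158 and 128 counts with sgEZH2-1, 93, 88 and 93 counts with sgEZH2-2, and 3 and 6 counts in the controls. Its level was 10.3, 10.8 and 8.96 CPM with sgEZH2-1, 6.42, 6.92 and 7.09 CPM with sgEZH2-2, and 0.213 and 0.391 CPM in the controls. With sgEZH2-2 SATB1 had the highest mean level of the 8 genes. The ratio to control was 32.7 with sgEZH2-1 (counting interval 17.1 to 72.1) and 22.2 with sgEZH2-2 (11.5 to 49.1). The gene TBC1D5 overlaps SATB1 on the same strand, so part of either count may belong to the other. TBC1D5 was at 53.8, 52.0 and 51.4 CPM with sgEZH2-1, at 50.5, 54.8 and 51.9 CPM with sgEZH2-2, and at 48.0 and 52.0 CPM in the controls, and did not pass the test with either guide (adjusted p = 0.531 and 0.629). Of the SATB1 exon sequence, 1.19% of 50-base words also occur in another annotated gene, all of them in TBC1D5.

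KHDRBS3, a STAR-family RNA-binding protein that controls splicing (of neurexins in mice), lies on chromosome 8, positions 135457457 to 135656722 (plus). It had 94, 82 and 93 counts with sgEZH2-1, 57, 46 and 65 counts with sgEZH2-2, and 2 counts in each control. Its level was 7.26, 5.61 and 6.51 CPM with sgEZH2-1, 3.93, 3.62 and 4.96 CPM with sgEZH2-2, and 0.142 and 0.130 CPM in the controls. The guide groups did not overlap, but the lowest sgEZH2-1 library was close to the highest sgEZH2-2 library. The ratio to control was 47.3 with sgEZH2-1 (counting interval 18.2 to 175) and 30.6 with sgEZH2-2 (11.7 to 114).

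**Figure D1:**
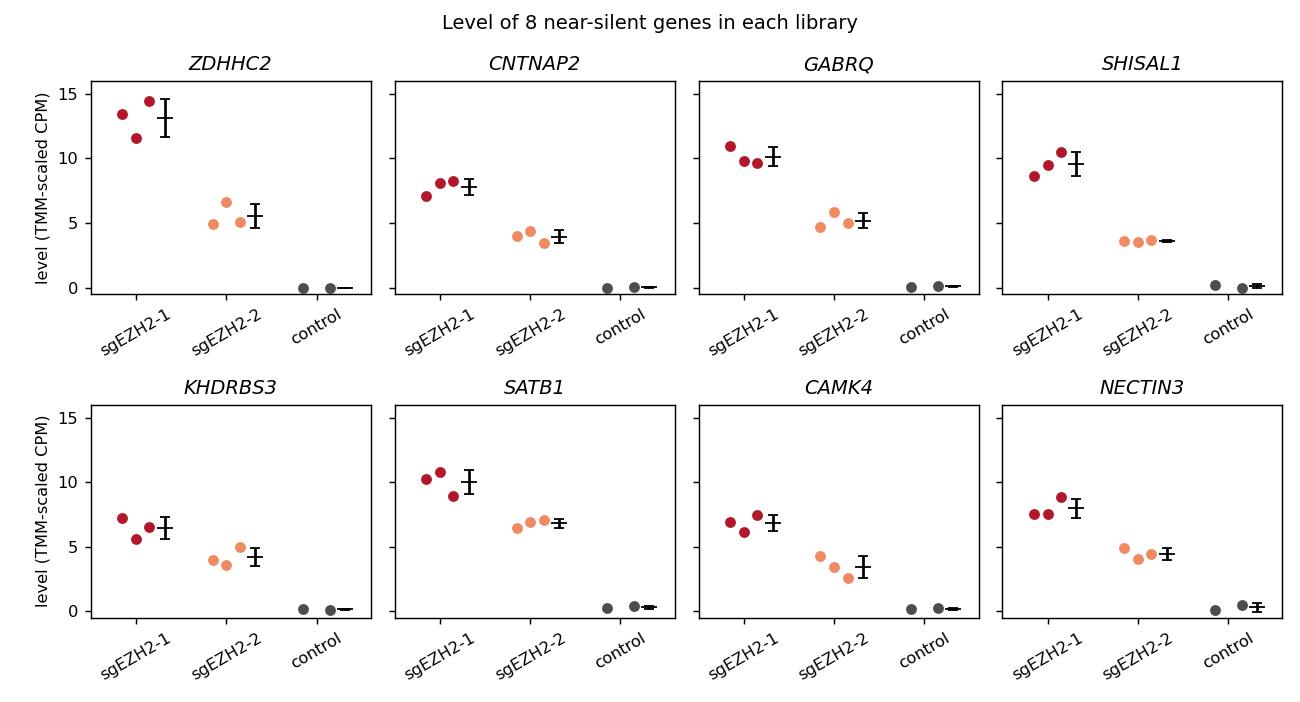
Level of each of the 8 genes (vertical axis, TMM-scaled CPM) in every library of sgEZH2-1, sgEZH2-2 and control, with bars for mean ± SD (n = 3, 3 and 2). All sgEZH2-1 points lie above all sgEZH2-2 points for each gene, and the controls lie at or below 0.521 CPM.

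All 8 genes passed the filter on low counts, and they did so through the guide libraries. Summed over the 8 genes the level was 72.2, 69.0 and 74.6 CPM with sgEZH2-1, 36.7, 38.4 and 36.3 CPM with sgEZH2-2, and 0.852 and 1.499 CPM in the controls. Every guide library was above both controls for 8 of 8 genes, against 10.2% of all tested genes, a count that the choice of genes fixed. The ratios to control rest on few control counts, and for 4 genes leaving out 1 control moved them by over 1.5 times. Without the second control, where NECTIN3 had 1 count left, its ratio was 112 with sgEZH2-1 (counting interval 20.0 to 4452) and 62.9 with sgEZH2-2 (11.1 to 2497). Without the first control it was 15.3 (7.67 to 35.7) and 8.56 (4.25 to 20.1). The CNTNAP2 ratio was 120 with sgEZH2-1 (21.4 to 4762) and 60.5 with sgEZH2-2 (10.7 to 2404) without the first control. Without the second, where its count was 0, CNTNAP2 was at least 36.8-fold and at least 18.5-fold higher than the 3 counts allowed in the remaining control. SHISAL1 was at 45.0 times control with sgEZH2-1 (15.3 to 219) and 16.9 times with sgEZH2-2 (5.66 to 82.8) without the second control, and at least 49.0-fold and 18.4-fold higher without the first. The bounds of ZDHHC2 with 1 control were at least 61.7-fold with sgEZH2-1 and 25.8-fold with sgEZH2-2, lower because 3 counts in 1 library are a higher level. Per kilobase of annotated exon the order differed from that of the CPM. With sgEZH2-1 ZDHHC2 was highest at 1.95 CPM per kb, followed by GABRQ at 1.64, SHISAL1 at 1.41, NECTIN3 at 1.29, KHDRBS3 at 0.747, SATB1 at 0.746, CAMK4 at 0.492 and CNTNAP2 at 0.469. With sgEZH2-2 GABRQ (0.839 CPM per kb), ZDHHC2 (0.822) and NECTIN3 (0.718) were highest, and CAMK4 (0.247) and CNTNAP2 (0.237) were again lowest. Neighbours in these orders such as KHDRBS3 and SATB1, or CAMK4 and CNTNAP2, differed by less than the spread between libraries.

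The guides were then compared with each other, a contrast that the choice of genes did not name, although it did use the levels in the same 6 libraries. The filter on low counts was also passed through these libraries, so the counts below describe the 8 genes and are no independent test. All 8 genes were higher with sgEZH2-1 than with sgEZH2-2. By edgeR 8 of the 8 passed the test in this direction and 0 in the other, against 10.4% of tested genes called higher and 11.5% called lower (21.9% in all). For 8 of 8 every sgEZH2-1 library was above every sgEZH2-2 library, against 21.0% of tested genes. The median log2 fold change of sgEZH2-1 over sgEZH2-2 was 0.98 over the 8 genes and -0.0069 over all tested genes.

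SHISAL1 differed most, at 2.66 times the sgEZH2-2 level with sgEZH2-1 (log2 fold change 1.41, SE 0.190, adjusted p = 0.000835), and ZDHHC2 followed at 2.38 times (1.25, SE 0.153, adjusted p = 0.000722). CAMK4 at 1.99 times (0.98, SE 0.193, adjusted p = 0.00599), CNTNAP2 at 1.98 times (0.99, SE 0.165, adjusted p = 0.00259) and GABRQ at 1.96 times (0.97, SE 0.133, adjusted p = 0.000912) were close to a ratio of 2. NECTIN3 was at 1.79 times (0.84, SE 0.204, adjusted p = 0.0162). The smallest differences were those of KHDRBS3 at 1.55 times (0.63, SE 0.169, adjusted p = 0.0246) and SATB1 at 1.47 times (0.56, SE 0.130, adjusted p = 0.0135). Put the other way, the sgEZH2-2 level was 37.7% of the sgEZH2-1 level for SHISAL1 and 68.0% for SATB1, with the other 6 in between. The KHDRBS3 call was lost with DESeq2 (adjusted p = 0.0813) and without the first (0.0697) or the third (0.0573) sgEZH2-1 library or the first (0.0673) or second (0.0988) sgEZH2-2 library. The SATB1 call was lost without the second sgEZH2-1 library (0.0664), and the NECTIN3 call without the second (0.0676) or the third (0.0603) sgEZH2-2 library.

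**Figure D2:**
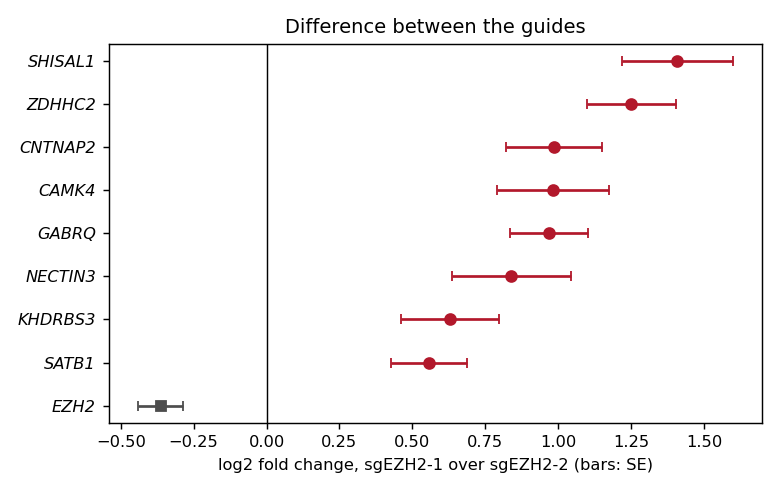
log2 fold change of sgEZH2-1 over sgEZH2-2 for the 8 genes and EZH2 (horizontal axis, bars ± SE, edgeR, n = 3 each). The 8 genes run from 0.56 for SATB1 to 1.41 for SHISAL1, and EZH2 is at -0.36.

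Genes with the same pattern of levels were counted to place the 8 among them. Of the table's genes, 7174 had at most 10 counts summed over both controls, and 44 of these (0.613%) were at 1 CPM or more in all 6 guide libraries. The 8 genes were the 8 highest of the 44 by mean level over the guides. The lowest of the 8 was CAMK4, at 5.14 CPM over both guides, and the next gene was MUC3A at 4.48 CPM. MUC3A averaged 3.92 CPM with sgEZH2-1 and 5.04 CPM with sgEZH2-2. It encodes a mucin with long repeats, so its count is uncertain. SEPTIN3, a filament-forming GTPase, averaged 4.60 CPM with sgEZH2-1 and 4.26 CPM with sgEZH2-2. The other high ones were EFNB3, an ephrin ligand (4.09 CPM with sgEZH2-1, 4.50 CPM with sgEZH2-2), SLC39A8, a metal transporter (4.89 and 3.47 CPM), and P3H3, a collagen prolyl hydroxylase (4.21 and 3.70 CPM). None of these 5 differed between the guides by the test. Over the 36 genes other than the 8, the median log2 fold change between the guides was 0.35 and the ratios ran from 0.554 to 3.59.

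**Figure D3:**
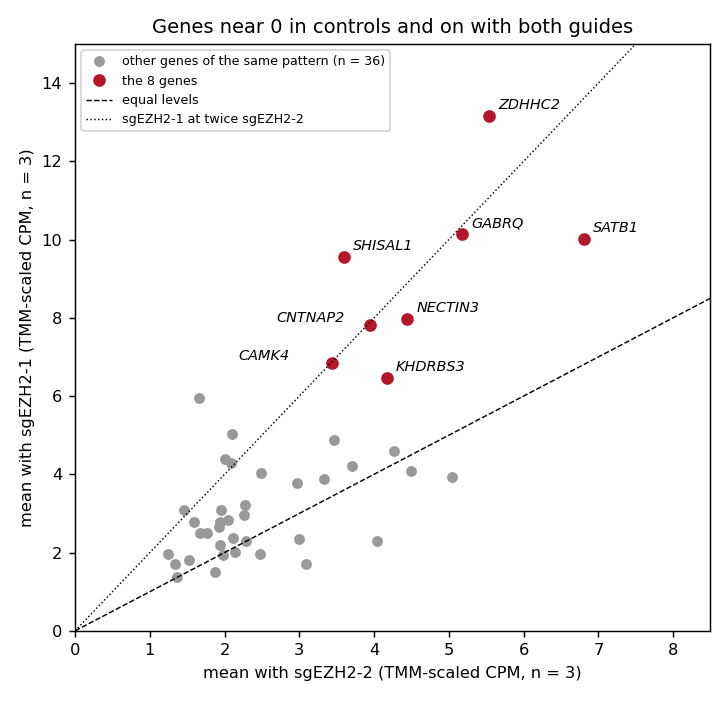
Mean level with sgEZH2-1 (vertical axis, TMM-scaled CPM, n = 3) against mean level with sgEZH2-2 (horizontal axis, n = 3) for the 44 genes with at most 10 control counts and at least 1 CPM in every guide library. The 8 genes lie above the dashed line of equal levels, 3.44 to 6.81 CPM with sgEZH2-2 and 6.46 to 13.2 CPM with sgEZH2-1, while the other 36 lie on both sides of it.

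The close paralogs of the 8 genes were listed to see whether relatives moved with them. All 38 listed paralogs were in the table, 9 had 0 counts in every library, and 18 could be tested. With sgEZH2-1, 5 of the 18 passed the test as higher than control and 1 as lower, against 11.3% and 9.51% of all tested genes. With sgEZH2-2, 4 were higher and 0 lower, against 6.18% and 2.50%. No 50-base word was shared between the exons of any of the 8 genes and its listed paralogs.

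SHISA2, which in frogs holds back maturation of FGF and Frizzled receptors, was at 8.03, 6.09 and 7.70 CPM with sgEZH2-1, at 11.04, 7.31 and 9.30 CPM with sgEZH2-2, and at 3.83 and 2.41 CPM in the controls. It rose with both guides (log2 fold change 1.22, adjusted p = 0.00646 with sgEZH2-1, and 1.57, adjusted p = 0.00298 with sgEZH2-2), though the sgEZH2-1 call was lost without the second control (adjusted p = 0.0528). SHISA5 averaged 123, 193 and 145 CPM with sgEZH2-1, with sgEZH2-2 and in the controls. SHISA5 was higher than control with sgEZH2-2 (log2 fold change 0.41, adjusted p = 0.0499), a call lost without the first (0.108) or second (0.226) control, the second sgEZH2-1 library (0.0681), or the second (0.153) or the third (0.148) sgEZH2-2 library. SHISA5 differed between the guides in the direction opposite to SHISAL1 (log2 fold change -0.65, SE 0.0995, adjusted p = 0.00166). SHISA4 (6.77, 7.51 and 7.94 CPM) and SHISA9 (4.50, 3.83 and 3.51 CPM) did not pass the test.

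CAMK1D, a kinase of the same calcium/calmodulin family as CAMK4, was at 15.4, 13.5 and 15.4 CPM with sgEZH2-1, at 11.1, 12.7 and 12.5 CPM with sgEZH2-2, and at 8.66 and 9.26 CPM in the controls. It rose with sgEZH2-1 (log2 fold change 0.72, SE 0.117, adjusted p = 0.00185). It also passed with sgEZH2-2 (0.43, SE 0.118, adjusted p = 0.0495), but that call was lost in 9 alternative fits, among them those without the first (0.216) or second (0.123) control. CAMK2D averaged 30.7, 31.4 and 32.4 CPM and CAMK2G 167, 154 and 157 CPM with sgEZH2-1, with sgEZH2-2 and in the controls, and neither passed.

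The nectins moved in different directions. NECTIN1, a partner of NECTIN3 across cell contacts, was at 219, 226 and 233 CPM with sgEZH2-1, at 282, 307 and 320 CPM with sgEZH2-2, and at 319 and 308 CPM in the controls. It fell with sgEZH2-1 (log2 fold change -0.47, SE 0.0596, adjusted p = 0.000452) and was at -0.046 with sgEZH2-2 (adjusted p = 0.709). NECTIN4, a nectin of epithelia, was at 41.1, 41.2 and 42.2 CPM with sgEZH2-1, at 30.1, 28.6 and 29.4 CPM with sgEZH2-2, and at 28.0 and 26.8 CPM in the controls. NECTIN4 rose with sgEZH2-1 (0.60, SE 0.0687, adjusted p = 0.000235) and was at 0.10 with sgEZH2-2 (adjusted p = 0.440). Both differed between the guides (NECTIN1 -0.42, adjusted p = 0.000593, and NECTIN4 0.50, adjusted p = 0.000456). PVR, the poliovirus receptor that binds NECTIN3, averaged 74.1, 54.5 and 60.0 CPM with sgEZH2-1, with sgEZH2-2 and in the controls. PVR was called with sgEZH2-1 (0.31, adjusted p = 0.0185), a call lost without the second control (0.116) or the second sgEZH2-1 library (0.0564). NECTIN2 averaged 56.5, 58.9 and 48.1 CPM in these groups and did not pass.

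The other tested paralogs did not pass against control. KHDRBS1 (SAM68), the abundant relative of KHDRBS3, was at 244, 255 and 256 CPM with sgEZH2-1, at 249.5, 247 and 251 CPM with sgEZH2-2, and at 251 and 255 CPM in the controls, while KHDRBS2 had 0 counts. ZDHHC20 averaged 170, 150 and 137 CPM with sgEZH2-1, with sgEZH2-2 and in the controls. GABRE averaged 29.6, 24.3 and 30.6 CPM and GABRP 12.9, 10.2 and 8.48 CPM in these groups. CNTNAP3 averaged 19.6, 22.4 and 23.7 CPM and CNTNAP3B 6.35, 9.11 and 8.86 CPM, and reads of these near-identical copies cannot be assigned with certainty.

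**Figure D4:**
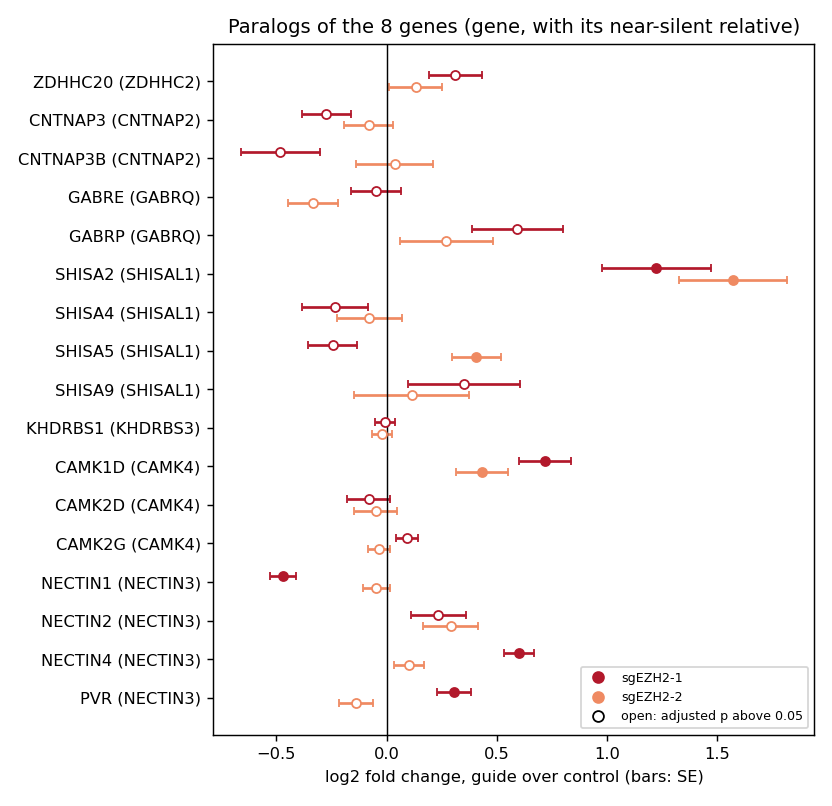
log2 fold change over control (horizontal axis, bars ± SE) of the tested paralogs described in the text, with sgEZH2-1 and with sgEZH2-2, filled where the adjusted p is at most 0.05. SHISA2 lies farthest to the right, at 1.22 with sgEZH2-1 and 1.57 with sgEZH2-2.

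Genes that work with the 8 were taken from 10 lists of 155 genes, of which 26 had 0 counts and 96 could be tested. With sgEZH2-1, 21 of the 96 rose and 9 fell, where 11.3% and 9.51% of all tested genes did. With sgEZH2-2, 9 rose and 2 fell, where 6.18% and 2.50% of all tested genes did. These shares also stand behind each count of a single list below, most of which rest on few genes. The median log2 fold change over the 96 was 0.042 with sgEZH2-1 and 0.043 with sgEZH2-2, against -0.0094 and 0.00091 over all tested genes. Some genes stand on more than 1 list. MEF2C and EPB41L3, near-silent in the controls, are among those that rose with each guide, and only a rise could be called for them.

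Of 18 tested palmitoyltransferase genes, 3 rose and 3 fell with sgEZH2-1, and 0 rose and 1 fell with sgEZH2-2. ZDHHC13 was at 0.36 (log2 fold change) with sgEZH2-1 (adjusted p = 0.00635), ZDHHC16 at -0.29 (adjusted p = 0.0103), and ZDHHC7 at -0.22 with both guides (adjusted p = 0.0227 with sgEZH2-1 and 0.0431 with sgEZH2-2). Without the first control the sgEZH2-1 calls of ZDHHC13 (0.0655), ZDHHC16 (0.0922) and ZDHHC7 (0.0954) were lost. The ZDHHC7 call with sgEZH2-2 was lost without any 1 of 7 libraries (adjusted p up to 0.155), as was its sgEZH2-1 call without the second control (0.0776) or the third sgEZH2-1 library (0.0777). Of 12 depalmitoylating enzymes and palmitoyltransferase cofactors, GOLGA7B, an accessory protein of palmitoyltransferases, was the 1 that rose with sgEZH2-1 (1.01, adjusted p = 0.00209), and 0 rose with sgEZH2-2, where GOLGA7B was at 0.54 (adjusted p = 0.0835).

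Of the tested CASPR partners and contactins, CNTN1, a contactin that pairs with another CASPR protein in neurons, fell with sgEZH2-1. Its level was 26.6, 23.9 and 24.4 CPM with sgEZH2-1, 38.6, 37.4 and 37.1 CPM with sgEZH2-2, and 40.2 and 43.5 CPM in the controls (log2 fold change -0.75, adjusted p = 0.000115 with sgEZH2-1, and -0.15, adjusted p = 0.267 with sgEZH2-2). EPB41L3 (protein 4.1B), which anchors CASPR proteins to the cytoskeleton, had 11, 13 and 13 counts with sgEZH2-1, 4, 3 and 3 counts with sgEZH2-2, and 0 counts in both controls. The gene passed the filter on low counts only through the guide libraries, so a fall could not be called. It was at least 8.67-fold higher with sgEZH2-1 (adjusted p = 0.000718) and at least 2.43-fold higher with sgEZH2-2 (adjusted p = 0.0282), and the sgEZH2-2 call was lost in 7 alternative fits, those without either control (0.134 each) or any 1 sgEZH2-2 library among them. The other 4 of 6 tested did not pass with either guide.

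Of 18 other GABA-A receptor subunits, 7 had 0 counts in every library and 4 could be tested, and 0 of these passed with either guide. Among 8 tested genes that make, move or sense GABA, 2 rose and 2 fell with sgEZH2-1 and 1 rose with sgEZH2-2. ABAT, which degrades GABA, rose with sgEZH2-1 (0.71, adjusted p = 0.00394), and ALDH5A1, the next enzyme of that route, fell (-0.44, adjusted p = 0.00200). With sgEZH2-2 ABAT was at 0.39 (adjusted p = 0.108) and ALDH5A1 at -0.24 (adjusted p = 0.0683). GABBR1, a GABA-B receptor subunit, was at 0.68 with sgEZH2-1 (adjusted p = 0.00973) and 0.66 with sgEZH2-2 (adjusted p = 0.0240). Without the first control the GABBR1 adjusted p was 0.0652 with sgEZH2-1 and 0.123 with sgEZH2-2, and the sgEZH2-2 call was also lost without the second control (0.109) or the first (0.0686) or second (0.0527) sgEZH2-2 library.

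Of 18 tested genes of calcium/calmodulin signalling, 4 rose and 1 fell with sgEZH2-1, and 2 rose and 0 fell with sgEZH2-2. MEF2C, a transcription factor that calcium-dependent kinases release from histone deacetylases, was itself near-silent in the controls. It passed the filter on low counts only through the guide libraries, so a fall could not be called. It had 30, 22 and 28 counts with sgEZH2-1, 31, 22 and 27 counts with sgEZH2-2, and 1 and 0 counts in the controls. The MEF2C ratio to control was 56.2 with sgEZH2-1 (counting interval 9.81 to 2248, adjusted p = 0.000214) and 58.4 with sgEZH2-2 (10.2 to 2334, adjusted p = 0.000434). HDAC5, such a deacetylase, fell with sgEZH2-1 (-0.45, adjusted p = 0.0143) and was at 0.25 with sgEZH2-2 (adjusted p = 0.189), and its call was lost without the first (0.0737) or second (0.0547) control or the second sgEZH2-1 library (0.0519).

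Of 12 tested genes of nectin-based junctions, 6 rose and 1 fell with sgEZH2-1, and 1 rose and 1 fell with sgEZH2-2. CADM4, a nectin-like adhesion protein, was at 10.0, 10.1 and 12.2 CPM with sgEZH2-1, at 10.7, 13.6 and 10.1 CPM with sgEZH2-2, and at 3.12 and 3.13 CPM in the controls. CADM4 rose with both guides (log2 fold change 1.78, adjusted p = 0.000115 with sgEZH2-1, and 1.87, adjusted p = 0.000175 with sgEZH2-2). AFDN, the afadin that nectins bind, rose with sgEZH2-1 (0.32, adjusted p = 0.00228) and was at 0.047 with sgEZH2-2 (adjusted p = 0.666).

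In the lists around SATB1 and KHDRBS3 few genes passed. Of 11 tested genes listed around SATB1 2 rose and 1 fell with sgEZH2-1, and 2 rose with sgEZH2-2. ONECUT2, a homeobox factor of the CUT class, was at 1.60 with sgEZH2-1 (adjusted p = 0.00962) and 1.47 with sgEZH2-2 (adjusted p = 0.0296), and both calls were lost without the first control (0.0861 and 0.178), the sgEZH2-2 call also without the second control (0.0799) or the first (0.0804) or second (0.0830) sgEZH2-2 library. Of 3 tested STAR proteins and splicing targets, QKI, an RNA-binding protein of the STAR family, was the 1 that rose, with sgEZH2-1 (0.45, adjusted p = 0.0134), and without the first control its adjusted p was 0.116.

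Genes lying within 500 kb of the 8 were examined, as position was not used to choose them. Of 49 neighbours, 30 were tested: with sgEZH2-1, 6 rose and 4 fell (11.3% and 9.51% of all tested genes), and with sgEZH2-2, 5 rose and 1 fell (6.18% and 2.50% of all tested genes). The edited gene EZH2 is 1 of the 4 that fell with sgEZH2-1, as a neighbour of CNTNAP2. SLC7A2 and CSAG3, near-silent in the controls, are among those that rose with each guide, and only a rise could be called for them. The median log2 fold change of the 30 was 0.12 with sgEZH2-1 and 0.027 with sgEZH2-2. KHDRBS3 had 0 neighbours in the table within that distance, and none of the tested neighbours of NECTIN3 passed.

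SLC7A2, an arginine transporter 272 kb from ZDHHC2, was also near-silent. It passed the filter on low counts only through the guide libraries, so a fall could not be called. It had 17, 23 and 20 counts with sgEZH2-1, 12, 11 and 11 counts with sgEZH2-2, and 1 count in each control, a ratio of 21.1 with sgEZH2-1 (counting interval 5.59 to 178, adjusted p = 0.000200) and 12.4 with sgEZH2-2 (3.18 to 107, adjusted p = 0.00231). CNOT7, 0.165 kb from ZDHHC2, averaged 70.3, 59.5 and 59.2 CPM with sgEZH2-1, with sgEZH2-2 and in the controls and did not pass (adjusted p = 0.0520 and 0.974). NREP, 168 kb from CAMK4, was at 2.62, 2.80 and 2.66 CPM with sgEZH2-1, at 3.86, 4.56 and 3.58 CPM with sgEZH2-2, and at 0.994 and 0.913 CPM in the controls. It rose with both guides (log2 fold change 1.49, adjusted p = 0.00169 with sgEZH2-1, and 2.06, adjusted p = 0.000439 with sgEZH2-2).

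Near GABRQ, NSDHL, an enzyme of cholesterol synthesis 173 kb away, fell with both guides (-0.49, adjusted p = 0.0015 with sgEZH2-1, and -0.42, adjusted p = 0.0085 with sgEZH2-2), though the sgEZH2-2 call was lost without the first control (0.0826). CSAG3, a cancer-testis gene 96.4 kb from GABRQ, had 6, 8 and 14 counts with sgEZH2-1, 12, 8 and 12 counts with sgEZH2-2, and 0 counts in both controls. The gene passed the filter on low counts only through the guide libraries, so a fall could not be called. CSAG3 was at least 6.56-fold higher with sgEZH2-1 (adjusted p = 0.0041) and at least 7.78-fold higher with sgEZH2-2 (adjusted p = 0.00589), and its count is uncertain because the family has near-identical copies. ZNF185 rose with sgEZH2-1 (0.65, adjusted p = 0.00074) and CETN2 fell (-0.44, adjusted p = 0.000854), and neither ZNF185 nor CETN2 passed with sgEZH2-2 (adjusted p = 0.444 and 0.323). GABRA3, the neighbouring GABA-A subunit gene 187 kb from GABRQ, averaged 0.961, 0.937 and 0.9503 CPM with sgEZH2-1, with sgEZH2-2 and in the controls. Near SHISAL1, PNPLA3, a lipase of lipid droplets, fell with sgEZH2-1 (-0.83, adjusted p = 0.00183) and was at -0.29 with sgEZH2-2 (adjusted p = 0.224). PARVB, an integrin-linked kinase partner 70.7 kb from SHISAL1, was at 0.63 with sgEZH2-1 (adjusted p = 0.0253) and 0.75 with sgEZH2-2 (adjusted p = 0.0227). Both PARVB calls were lost without either control, with adjusted p up to 0.155 with sgEZH2-1 and 0.140 with sgEZH2-2, and each was lost without 1 or more libraries of its own guide. PDGFRL, 352 kb from ZDHHC2, was at 1.33 with sgEZH2-1 (adjusted p = 0.0229) and 1.36 with sgEZH2-2 (adjusted p = 0.0389). Its calls too were lost without either control, with adjusted p up to 0.136 and 0.187.

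For each gene the non-members whose log2 CPM followed it most closely over the 8 libraries were sought, a description in which libraries and depth are shared. Among the 8 themselves Pearson's r ran from 0.925 to 0.998, but their choice by a step from control to guide libraries largely fixed a high r. The same step enters each r below. ZDHHC2 was followed by KIF26A and EPB41L2 (r of 0.997 each), CNTNAP2 by GNAO1 (0.999) and EPB41L2 (0.997), and GABRQ by EPB41L2 (0.999) and GNAO1 (0.997). EPB41L2, a membrane-cytoskeleton linker, averaged 81.2, 55.5 and 13.4 CPM with sgEZH2-1, with sgEZH2-2 and in the controls, and GNAO1, a G protein alpha subunit, 24.4, 18.4 and 3.90 CPM, so both were well above 0 in the controls. SHISAL1 was followed by CCND2 (0.998) and PPP2R2C (0.997), KHDRBS3 by NEO1 (0.997) and NAP1L2 (0.996), and SATB1 by GNAO1 (0.997) and RBPMS2 (0.996). CAMK4 was followed by LRP12 (0.995) and FAM167A (0.994), and NECTIN3 by LIFR (0.997) and TGFBR1 (0.995).

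Several of the 8 genes are typical of neurons or T cells, so markers of these cells were read beside them. Of 9 neuron markers 4 (SNAP25, STMN2, ELAVL4 and GAP43) had 0 counts in every library. Their summed level was 76.3 to 88.7 CPM with sgEZH2-1, 42.2 to 45.3 CPM with sgEZH2-2 and 40.0 to 40.5 CPM in the controls. MAP2 was the 1 marker called, with sgEZH2-1, and averaged 64.7, 24.0 and 25.8 CPM with sgEZH2-1, with sgEZH2-2 and in the controls (adjusted p = 6.18e-06 with sgEZH2-1 and 0.535 with sgEZH2-2). Of 11 T cell and leukocyte markers 5 (CD3D, CD3E and CD2 among them) were at 0 in every library and 0 were called. Their sum was 2.38 to 3.63 CPM with sgEZH2-1, 2.12 to 2.90 CPM with sgEZH2-2 and 2.61 to 2.91 CPM in the controls.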

How the data were processed

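RNA of 8 HSC-5 libraries was sequenced from TruSeq stranded mRNA libraries, per the labels' protocols. The authors deposited whole-number read counts per gene, with no normalization. FastQC, STAR, DESeq and build hg38 are named, per the submitters' processing notes; for the counting tool, annotation, strand setting and versions the entry is: not given in the sources used here. Columns name groups without replicate numbers, so libraries are numbered by column order, and 0 unused columns and 0 unnamed genes were present.

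Differences were tested with the two-sided quasi-likelihood F test of edgeR 4.0.16 (R 4.3.3) in a fit of 3 groups over all 8 libraries. TMM scaling was used, filterByExpr at a minimum count of 10 kept 13124 of 20294 genes, and p-values were adjusted by Benjamini-Hochberg over these with a threshold of 0.05. SE values were derived from the F statistic. The code was tested on simulated data. DESeq2 1.42.0, library totals, no filter, only the groups compared and leaving out each library were alternatives. Symbols were matched to GENCODE 29 (GRCh38, 1-based positions): 19873 by symbol, 305 through a renamed gene's identifier and 116 not at all. Distances, exon lengths and 50-base words come from it. Intervals (95%) and bounds at 3 counts over both controls cover counting error only.

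Members, paralogs and lists were chosen with earlier results of these data known. Named genes were the members, EZH2, every tested paralog (1 is counted but not reported here), up to 4 called genes per list, up to 2 called neighbours per member, the 2 most alike genes per member, and the 5 highest other near-silent genes. TBC1D5, CNOT7, GABRA3, NSDHL, CSAG3, MAP2 and single keratinocyte markers were named after their values were seen.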

Additional observations from a re-analysis of the deposited data

Results flagged for a closer look

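The 12 named results below passed the test between the guides. For the 8 near-silent genes this is no independent test. Their levels in these libraries chose them and carried them past the filter on low counts. The calls of KHDRBS3, SATB1 and NECTIN3 were lost in some alternative fits. Values are the log2 fold change of sgEZH2-1 over sgEZH2-2 with 3 libraries each. All 8 near-silent genes were higher with sgEZH2-1: SHISAL1 by 1.41, ZDHHC2 by 1.25, CNTNAP2 by 0.99, CAMK4 by 0.98, GABRQ by 0.97, NECTIN3 by 0.84, KHDRBS3 by 0.63 and SATB1 by 0.56. Of the paralogs that had passed the test against control with 1 guide, NECTIN4 was 0.50 and PVR 0.44 higher with sgEZH2-1 (SE of PVR 0.0689, adjusted p = 0.0018), while NECTIN1 was at -0.42 and SHISA5 at -0.65, so both were higher with sgEZH2-2. EZH2 was lower with sgEZH2-1 in the same libraries, and the part of its level in these differences was not tested. No group held 4 libraries, so no single library could be tested for standing apart.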

How the results depend on the processing

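No paired analysis was possible because the columns of the count table carry no replicate numbers. Leaving out a control leaves 1, which is then assumed to vary like the other groups. Among 104 refits of single members' guide differences 8 lost their call and 0 reversed; the number of members called was 6 to 8 without 1 library and 7 with DESeq2. Of 49 named calls of other genes, 26 held in all alternatives and 23 were lost in at least 1. Each lost call was lost without a control, and some of them in no other fit. Without 1 library, called list genes ran from 15 (without the first control) to 31 with sgEZH2-1, where 30 were called over all libraries. With sgEZH2-2 they ran from 4 to 12, where 11 were called, and were 7 with only the 2 groups fitted. Called paralogs ran from 2 to 5 with sgEZH2-2 (4 over all libraries; 2 without either control, without the second sgEZH2-1 library, and without the second or the third sgEZH2-2 library). Called neighbours with sgEZH2-1 were 10 within 500 kb, 5 within 200 kb and 17 within 1000 kb; with sgEZH2-2 they ran from 3 (without the first control) to 7, where 6 were called. The 44 near-silent genes that were on in every guide library became 18 with at most 3 control counts. They became 17 at 2 CPM or more in every guide library. EZH2 with sgEZH2-2 ran from -0.32 to -0.24, and at -0.26 without the third sgEZH2-1 library it passed (adjusted p = 0.0473). Uncalled values close to 0 changed sign: KHDRBS1 with sgEZH2-1 was 0.0070 on library totals, 0.0018 with only the 2 groups fitted and -0.014 to 0.013 without 1 library; KHDRBS1 with sgEZH2-2 was 0.0073 on library totals; NECTIN1 with sgEZH2-2 ran from -0.086 to 0.016 and ZDHHC20 from -0.052 to 0.35 without 1 library. The causes were not tested. Ratios of the 8 genes to control without each library were added after seeing the data. At this depth 1 control count is about 0.07 CPM, which limits every ratio of the 8 genes to control.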

Other observations

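Of the 36 near-silent genes other than the 8, 7 passed the test between the guides, a share near the 21.9% of all tested genes. The 36 were also picked by their levels in the guide libraries and passed the filter on low counts through them. The count is thus a description and no independent test. These 7 genes are named here after their values were seen. Higher with sgEZH2-1 were CELF2, a splicing factor (5.94 CPM with sgEZH2-1, 1.66 CPM with sgEZH2-2, log2 fold change 1.84, adjusted p = 0.00013), SLC9A2, a sodium/proton exchanger (5.03 and 2.10 CPM, adjusted p = 0.00167), PYGO1, a WNT coactivator (4.40 and 2.01 CPM, adjusted p = 0.00352), TSPAN18, a tetraspanin (4.28 and 2.09 CPM, adjusted p = 0.0131), and CHN1, a RAC GTPase-activating protein (3.09 and 1.46 CPM, adjusted p = 0.00698). Lower with sgEZH2-1 were AXIN2, a feedback inhibitor of WNT signalling (2.30 CPM with sgEZH2-1, 4.04 CPM with sgEZH2-2, log2 fold change -0.81, adjusted p = 0.0223), and GALNT14, which starts O-linked glycan chains (1.71 and 3.09 CPM, -0.85, adjusted p = 0.0206).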
